A study of Mus musculus with 6 samples.

Results

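The Polycomb repressive complex genes described here were 10 genes, read by every probe set whose single gene symbol was Ezh2, Ezh1, Eed, Suz12, Jarid2, Mtf2, Rnf2, Ring1, Bmi1 or Pcgf6. They were chosen by name, not by their values, although earlier results of these data were known. Ezh2 was among them as a reported target of TFII-I, the protein that GTF2I encodes. All 10 were measured, by 33 of the 45037 probe sets, among 18193 genes that had a probe set with 1 symbol. The number of probe sets was 1 for Ezh2 and Ring1, 2 for Eed and Bmi1, 3 for Jarid2 and Pcgf6, 4 for Ezh1, 5 for Rnf2, and 6 for Suz12 and Mtf2.

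The arrays were 6 Affymetrix whole-genome mouse arrays of mouse embryonic stem (ES) cells of the line EBRTcH3 (EB3), grown in medium with LIF on gelatin-coated plates. In 3 clones, A1, B3 and C6, the coding sequence of human GTF2I with a FLAG tag and without its untranslated regions had been knocked in at ROSA26 behind a promoter that tetracycline represses (Tet-off). The induced group was 1 array of each clone after 24 h without tetracycline, and the uninduced group was 1 array of each clone at 0 h, with tetracycline present. All arrays therefore came from cells that carried the transgene, and the 3 clones came from a single parental line. Induction was removal of tetracycline, and no array came from cells kept for 24 h with the drug. The transgene, the loss of the drug and the 24 h of culture therefore cannot be told apart. By the labels the arrays are biological replicates. Over 3 clones the p-values rest on the spread between arrays of these clones, moderated by the variance pooled over all probe sets. In the fits with the clone as a block (B3 and C6, and A1 against them) 1 residual degree of freedom is left. Their p-values rest mostly on that pooled variance. Where A1 is compared with B3 and C6, A1 is 1 clone whose own spread is not measured. The transgene is GTF2I by the sample titles, used here, although GTF2IRD2 stands in a characteristics field.

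Polycomb proteins keep developmental genes silent by marking histones. Polycomb repressive complex 2 (PRC2) methylates histone H3 at H3K27 through Ezh2 or Ezh1, held together with Eed and Suz12, and is brought to chromatin or tuned by accessory subunits such as Jarid2 and Mtf2. Polycomb repressive complex 1 (PRC1) ubiquitylates histone H2A through Rnf2 (RING1B) or Ring1 (RING1A), each paired with a PCGF protein such as Bmi1 (PCGF4) or Pcgf6, and ES cells use both complexes to hold lineage genes silent until differentiation.

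RefSeq promoters of build GRCm38.p6, from 250 bases before to 50 after a transcription start, were matched for all 10 genes. For Suz12 and for the promoter of Jarid2 shown, that start is the outer end of the gene in the annotation, while for Ezh2 it lies 240 bases inside the annotated gene. The promoters of Ezh2, Suz12 and Jarid2 are printed because these genes carry the results below: Ezh2 as the reported target, Suz12 and Jarid2 as the genes with probe sets that passed the test. They lie at chr6:47594981-47595280 on the minus strand for Ezh2, chr11:79992856-79993155 on the plus strand for Suz12 and chr13:44730524-44730823 on the plus strand for the first of the 2 promoters listed for Jarid2. They are written 5′ to 3′, and capitals mark matches on either strand to the motifs named after them.
Ezh2: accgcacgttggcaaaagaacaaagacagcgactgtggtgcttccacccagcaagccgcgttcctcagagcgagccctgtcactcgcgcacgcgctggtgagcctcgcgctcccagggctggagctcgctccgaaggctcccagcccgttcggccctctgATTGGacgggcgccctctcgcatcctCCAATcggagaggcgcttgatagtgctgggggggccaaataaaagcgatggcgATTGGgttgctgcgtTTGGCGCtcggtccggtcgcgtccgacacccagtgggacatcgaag
Suz12: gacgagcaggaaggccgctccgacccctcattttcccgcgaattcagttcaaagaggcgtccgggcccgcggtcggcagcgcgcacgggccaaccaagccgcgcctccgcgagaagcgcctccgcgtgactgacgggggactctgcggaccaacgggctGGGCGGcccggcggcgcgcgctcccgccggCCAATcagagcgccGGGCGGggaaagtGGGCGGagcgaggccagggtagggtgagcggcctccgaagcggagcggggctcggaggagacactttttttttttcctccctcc
Jarid2: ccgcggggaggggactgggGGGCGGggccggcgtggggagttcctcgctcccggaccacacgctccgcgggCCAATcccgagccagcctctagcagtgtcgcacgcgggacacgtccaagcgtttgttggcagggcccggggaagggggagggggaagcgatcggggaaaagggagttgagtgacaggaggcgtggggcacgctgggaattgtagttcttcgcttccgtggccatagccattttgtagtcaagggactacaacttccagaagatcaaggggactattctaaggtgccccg

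Both strands were searched for the E-box CACGTG, which TFII-I is known to bind, for an E2F-type motif, TTGGCGC, for the CCAAT box and for the GC box GGGCGG. In the printed promoters no base fell in more than 1 match. Ezh2 had 3 CCAAT boxes, starting 90, 64 and 11 bases before the start, and the E2F-type motif 5 bases after it. Suz12 had 1 CCAAT box, 61 bases before the start, with GC boxes 91, 47 and 34 bases before it, and Jarid2 had a CCAAT box at 179 bases and a GC box at 231 bases before it. With 1 promoter per gene, the CCAAT box was found in 4 of the 10 genes (Ezh2, Eed, Suz12 and Jarid2) and in 37.41% of 32851 promoters of the same length, and the GC box in 7 of 10 and in 35.66%. The E2F-type motif was found in Ezh2 alone of the 10 and in 2.45% of promoters, and the E-box in Bmi1 alone and in 7.15%. The 10 promoters held between 17 and 41 CpG, with 31 in Ezh2, 41 in Suz12 and 24 in Jarid2, against a median of 7 (quartiles 3 and 20) over all promoters. These matches describe the sequence and not binding.

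The authors' values are log2 levels after robust multiarray averaging (RMA), so a difference of 1 is a doubling, and a level of one probe set cannot be set against that of another. The medians of the arrays lay between 5.06 and 5.11 and correlations between arrays between 0.991 and 0.996. All 8 ES cell markers were above the upper quartile of every array, with a mean level between 12.38 and 12.61 in induced and between 12.49 and 12.53 in uninduced arrays. Markers of fibroblast feeders (8 of 8 measured), of which 1, Fbln1, was above the upper quartile of every array and 2 were below the lower quartile of every array, had mean levels of 5.40 to 5.63 in induced and 5.47 to 5.57 in uninduced arrays, and those of differentiated cells (7 of 8 measured) 5.04 to 5.10 in induced and 5.08 to 5.16 in uninduced arrays. The brightest probe set of mouse Gtf2i stood at 10.46, 10.79 and 10.80 in the induced and 10.31, 10.69 and 11.02 in the uninduced arrays of A1, B3 and C6. It differed by -0.06 in B3 and C6 alone. The dimmer ones were lower there: 1460279_a_at by -0.52 (limma, adjusted p = 0.045), 1431676_x_at by -0.62 (adjusted p = 0.0508) and 1431675_a_at by -0.42 (adjusted p = 0.163). Of all probe sets 2.18% passed in B3 and C6, and 0 without the clone as a replicate block. The Gtf2i probe sets were not placed against the human transgene and do not check its induction. By the study's RT-PCR the transgene was higher at 24 h than at 0 h in each of the 3 clones, which does not check the labels of the arrays. Across all probe sets the induced minus uninduced difference of A1 ran opposite to those of the other clones (r = -0.39 with B3 and -0.48 with C6, against 0.46 between B3 and C6). The sign of every A1 difference rests on the labels of its 2 arrays, which no value here checks, and would turn if the labels of these arrays were exchanged. Each result is therefore given over 3 clones, over B3 and C6 without A1, and as A1 against B3 and C6. That A1 ran opposite was known from earlier results when A1 was set apart. The p-values of the latter 2 comparisons do not allow for this choice and can be too small. In bulk samples fewer cells of a type and less RNA per cell cannot be told apart.

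Over 3 clones, no gene of the 10 was called. Limma's test at an adjusted p of 0.05 was passed by 0 of the 33 probe sets against a background of 0% of all probe sets, and 0 of 33 had an unadjusted p under 0.05 against 0.968%. The differences, induced minus uninduced, lay between -0.27 (Ring1) and 0.33 (a dim probe set of Suz12), with 18 above 0 and 15 below it and a median of 0.01, where the median of all probe sets was 0.00. The induced and the uninduced arrays overlapped for all 33 probe sets, while 4.55% of all probe sets did not overlap. With 3 arrays against 3, an exact permutation test of a single value cannot give a p under 0.1. The 95% intervals of these probe sets reached a median of 0.31 to either side of the estimate, so in this fit differences smaller than that could not be told from 0. In the fit of B3 and C6, with the clone as a replicate block, this median was 0.24.

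**Figure D1:**
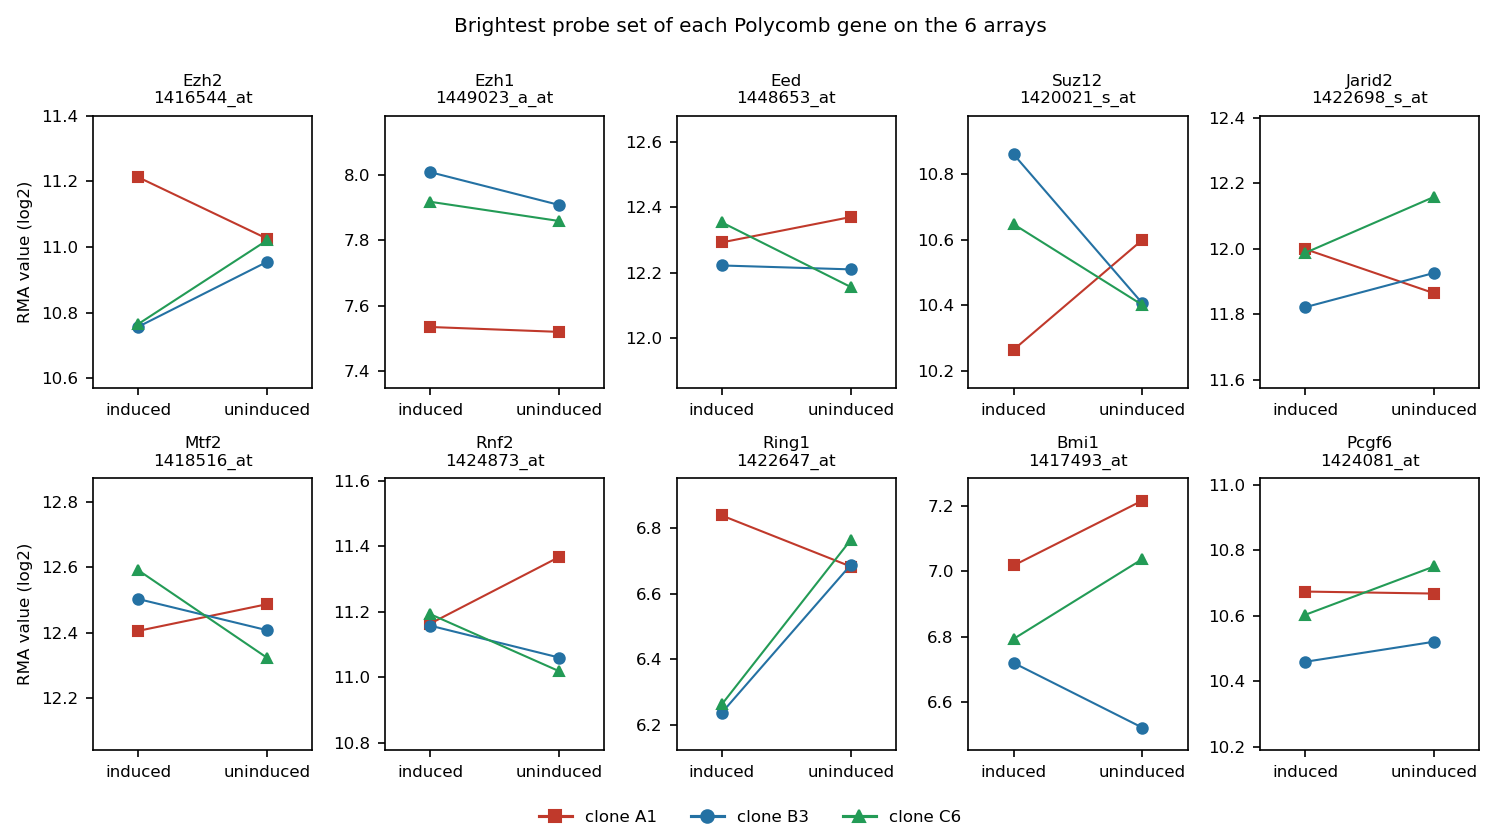
RMA level (log2) of the brightest probe set of each of the 10 genes, induced on the left and uninduced on the right of each panel, with lines that connect each clone's arrays; every vertical axis spans the same number of log2 units around its own centre. Lines of A1 slope against those of B3 and C6 for 8 of the 10 genes, and in no panel do all induced points lie on one side of the uninduced ones.

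Ezh2, the main H3K27 methyltransferase of dividing cells, was at 11.21, 10.76 and 10.77 in the induced arrays of A1, B3 and C6, and at 11.03, 10.96 and 11.02 in their uninduced arrays. The uninduced arrays lay close together, whereas the induced array of A1 was the highest of the 6 and those of B3 and C6 the lowest. The SD was 0.26 over induced and 0.04 over uninduced arrays (n = 3 each), and the difference of the means was -0.09 (95% interval -0.41 to 0.23). By clone, A1 was at 0.19, B3 at -0.20 and C6 at -0.26. Ezh2 differed by -0.23 in B3 and C6 alone (95% interval -0.47 to 0.01; limma, adjusted p = 0.337), and A1 differed from them by 0.41 (adjusted p = 0.292).

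Ezh1, the methyltransferase that takes the place of Ezh2 mainly in cells that no longer divide, was at 7.54, 8.01 and 7.92 in the induced arrays of A1, B3 and C6, and at 7.52, 7.91 and 7.86 in their uninduced arrays. Its brightest probe set was slightly higher in the induced array of all 3 clones, by 0.01, 0.10 and 0.06, which is far less than the spread between clones. Both arrays of A1 lay below all 4 arrays of B3 and C6. The A1 mean over both states was 7.53, against 7.92 in B3 and C6, a difference of -0.40 (limma, unadjusted p = 0.0286, adjusted p = 0.707). Of the other 3 probe sets of Ezh1, 1429629_at was dimmer than the lower quartile of each array, and their differences over 3 clones lay between -0.06 and 0.09.

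Eed, the subunit that reads methylated H3K27, was at 12.29, 12.22 and 12.35 in the induced arrays of A1, B3 and C6, and at 12.37, 12.21 and 12.16 in their uninduced arrays. The difference over 3 clones was 0.04 (95% interval -0.19 to 0.28). The other probe set of Eed was dim, with levels between 3.37 and 3.72.

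Suz12, the scaffold that binds the other PRC2 core subunits, had the largest differences among the core genes. All 6 of its probe sets were on average higher after induction in B3 and C6, by 0.10 to 0.62, and 5 of 6 were lower in A1. The brightest, 1420021_s_at, was at 10.26, 10.86 and 10.65 in the induced arrays of A1, B3 and C6, and at 10.60, 10.41 and 10.40 in their uninduced arrays. For this probe set the induced arrays of B3 and C6 lay above, and that of A1 below, every uninduced array. It differed by 0.35 ± 0.11 (SE) in B3 and C6 (limma, adjusted p = 0.151) and A1 differed from them by -0.69 ± 0.19 (adjusted p = 0.0994), so neither passed. The difference in B3 and C6 passed with an intensity trend and robust prior (adjusted p = 0.0192), and that of A1 also among probe sets whose mean was 6 or more (adjusted p = 0.0389). Neither passed without the clone as a replicate block.

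One dim probe set of Suz12, 1420022_s_at, passed the test. It was at 5.31, 5.67 and 6.00 in the induced arrays of A1, B3 and C6, and at 5.55, 5.01 and 5.43 in their uninduced arrays. It rose by 0.62 ± 0.11 (SE) in B3 and C6, a fold of 1.53 (limma, adjusted p = 0.0261), and A1 differed from them by -0.85 ± 0.18 (adjusted p = 0.047). Without the clone as a replicate block neither passed (adjusted p = 0.505 and 0.565). Its level was near the median of the arrays, where signal over background is low, and the 5 brighter probe sets of Suz12 did not pass in either comparison. Of those 5, 1449661_at had the largest difference in B3 and C6, 0.41 (adjusted p = 0.193), and 1420020_at the smallest, 0.10 (adjusted p = 0.74). The probe set 1420020_at was the exception in A1, where it was higher by 0.17.

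Jarid2, an accessory subunit that helps recruit PRC2 in ES cells, went the other way. All 3 of its probe sets were lower after induction in B3 and in C6 and higher in A1. The probe set 1450710_at was at 11.04, 10.30 and 10.71 in the induced arrays of A1, B3 and C6, and at 10.60, 10.98 and 11.25 in their uninduced arrays. The induced arrays of B3 and C6 overlapped the uninduced array of A1, and the difference within a clone was 0.43 for A1, -0.69 for B3 and -0.54 for C6. It fell by 0.61 on the log2 scale in B3 and C6, a fold of 1.53 (SE 0.11; limma, adjusted p = 0.0272), and A1 differed from them by 1.05 ± 0.19 (SE; adjusted p = 0.0248). Without the clone as a replicate block neither passed (adjusted p = 0.478 and 0.43).

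The brightest probe set of Jarid2, 1422698_s_at, was at 12.00, 11.82 and 11.99 in the induced arrays of A1, B3 and C6, and at 11.86, 11.93 and 12.16 in their uninduced arrays. It had the same signs at a smaller size, -0.14 in B3 and C6 (adjusted p = 0.592) and 0.27 for A1 against them (adjusted p = 0.518). The third, 1422697_s_at, differed by -0.08 in B3 and C6 (adjusted p = 0.799). The fall of 1450710_at was therefore not matched in size by the other probe sets of the gene.

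**Figure D2:**
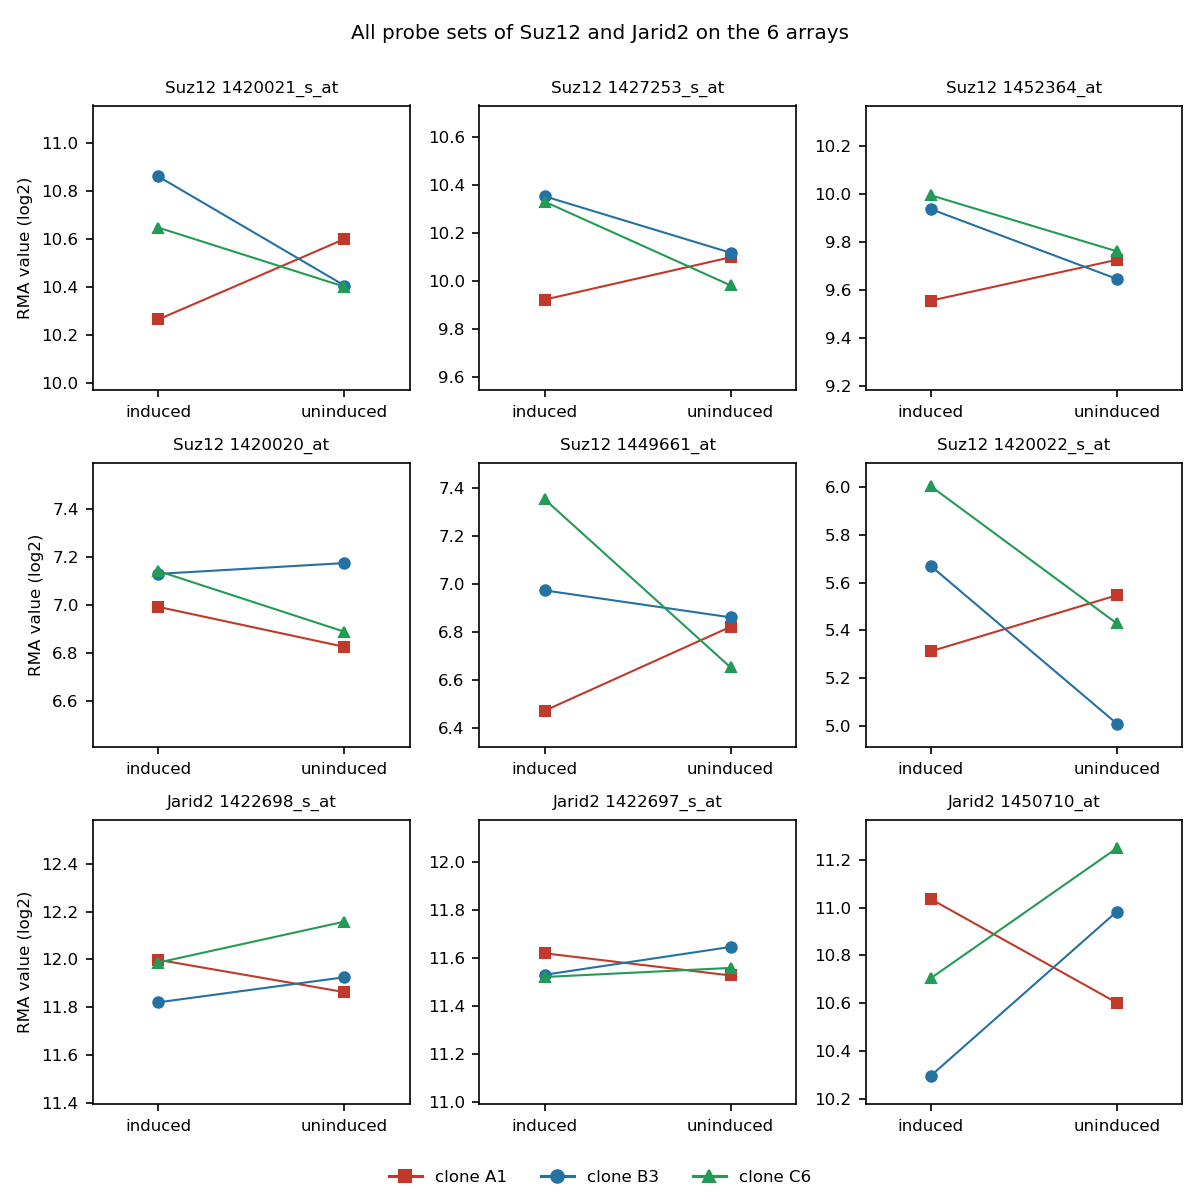
RMA level (log2) of all 6 probe sets of Suz12 and all 3 of Jarid2, induced on the left and uninduced on the right of each panel, with lines that connect each clone's arrays. The panels of Suz12 1420022_s_at and Jarid2 1450710_at hold the probe sets that passed the test in B3 and C6; A1 slopes against the other clones in 8 of the 9 panels.

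Mtf2 (PCL2), which tethers PRC2 to unmethylated CpG-rich DNA, had 6 probe sets and none that passed. The brightest was at 12.41, 12.50 and 12.59 in the induced arrays of A1, B3 and C6, and at 12.49, 12.41 and 12.32 in their uninduced arrays. Its difference was 0.18 in B3 and C6 (limma, adjusted p = 0.473) and -0.08 in A1. The 6 probe sets did not share a direction: in B3 and C6 4 were higher and 2 lower, within -0.12 to 0.18.

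Rnf2, the main H2A ubiquitin ligase of ES cells, was at 11.16, 11.16 and 11.19 in the induced arrays of A1, B3 and C6, and at 11.37, 11.06 and 11.02 in their uninduced arrays, by its brightest probe set. The induced arrays lay within a narrow range between the uninduced array of A1 and those of B3 and C6. The difference over 3 clones was 0.02 (95% interval -0.25 to 0.29). Its 5 probe sets lay between -0.21 and 0.14 in B3 and C6 and none passed. For 1448042_s_at A1 averaged 6.07 over both states, against 5.58 in B3 and C6, a difference of 0.49 (limma, unadjusted p = 0.0162, adjusted p = 0.57).

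Ring1, the second H2A ligase, came closest to the threshold in B3 and C6 among the brightest probe sets. It was at 6.84, 6.24 and 6.26 in the induced arrays of A1, B3 and C6, and at 6.68, 6.69 and 6.76 in their uninduced arrays. The uninduced arrays lay close together, and the induced arrays of B3 and C6 lay below all of them. Ring1 was at -0.48 ± 0.11 (SE; limma, adjusted p = 0.0553) in these clones and A1 differed from them by 0.63 ± 0.18 (SE; adjusted p = 0.111). The Ring1 difference in B3 and C6 passed when the test was kept to probe sets whose mean was 6 or more (adjusted p = 0.0241), with quantile normalization (adjusted p = 0.0468) and with an intensity trend and robust prior (adjusted p = 0.0256). It did not pass without the clone as a replicate block, with 1 probe set per gene or at a threshold of 0.01.

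Bmi1, a PCGF subunit of canonical PRC1, was at 7.02, 6.72 and 6.79 in the induced arrays of A1, B3 and C6, and at 7.22, 6.52 and 7.04 in their uninduced arrays. Here B3 was the clone that went against the others, with 0.20, while A1 and C6 were at -0.20 and -0.24. Over both states A1 was the highest clone, and the dimmer probe set 1448733_at of Bmi1 averaged 5.17 in A1 against 4.81 in B3 and C6 (difference 0.36; limma, unadjusted p = 0.0382, adjusted p = 0.77).

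Pcgf6, which defines a variant PRC1 that silences germline genes in ES cells, was at 10.67, 10.46 and 10.60 in the induced arrays of A1, B3 and C6, and at 10.67, 10.52 and 10.75 in their uninduced arrays. The spread between clones was larger than the difference within any clone. The difference was -0.07 over 3 clones (95% interval -0.32 to 0.18) and -0.10 in B3 and C6 (limma, adjusted p = 0.708). The other 2 probe sets of Pcgf6 were at -0.12 and 0.04 over 3 clones.

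**Figure D3:**
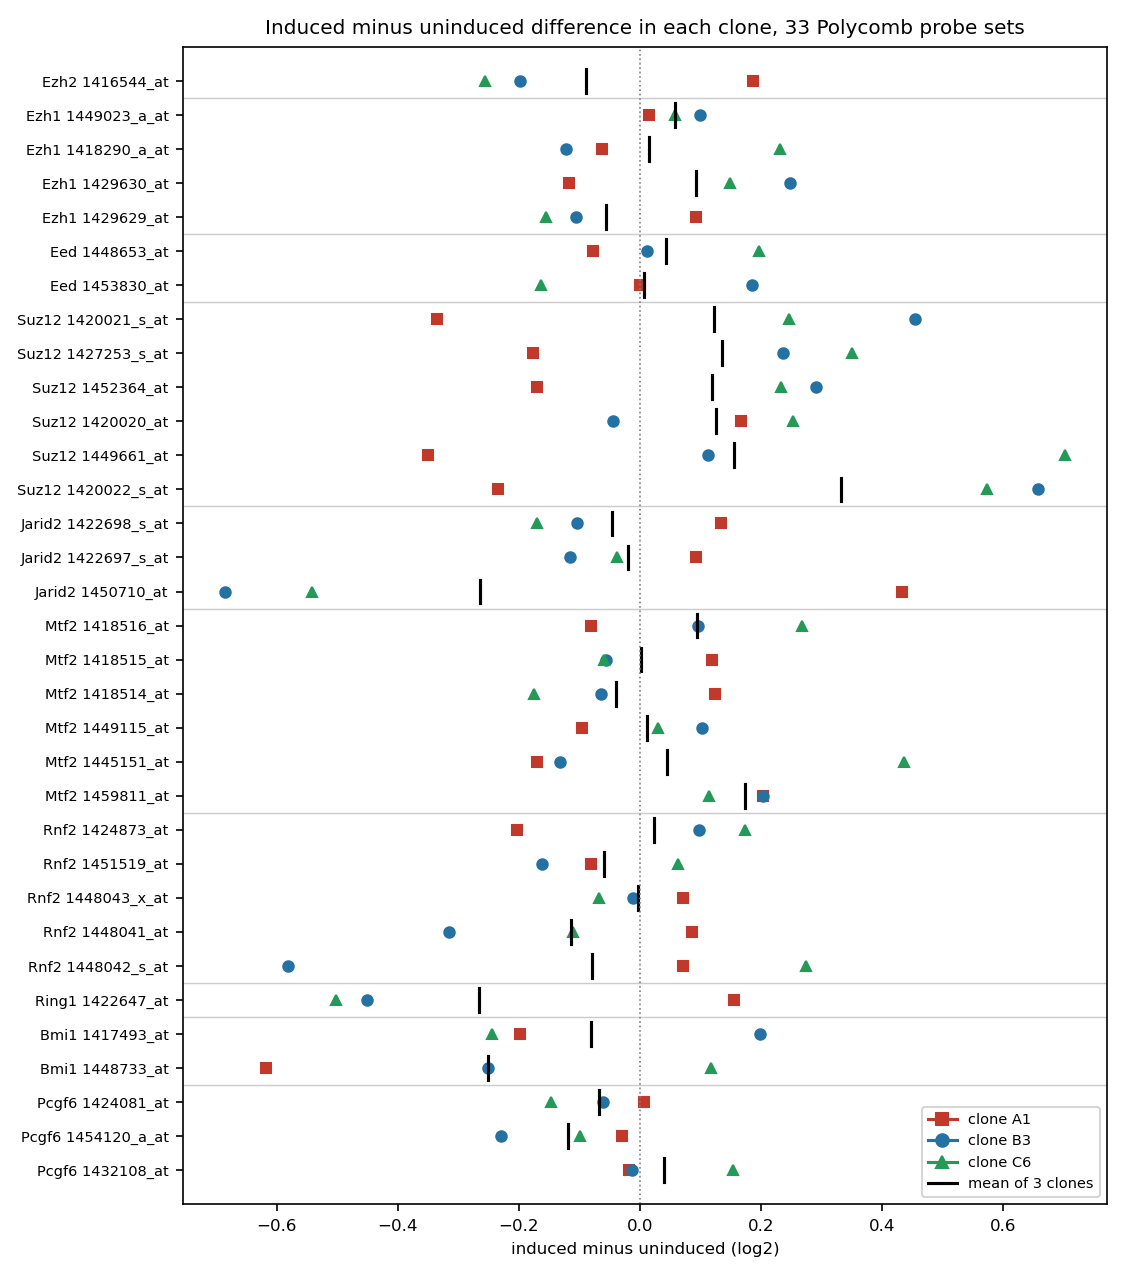
Induced minus uninduced difference (log2) of all 33 probe sets, with a symbol for each clone and a black bar for the mean of the 3 clones; the dotted line is 0. The black bars lie between -0.27 and 0.33, and A1 lies on the other side of 0 from both B3 and C6 for 21 of the 33 probe sets.

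The calls were set against all probe sets. For B3 and C6, 2 of 33 probe sets passed (6.06%), where 2.18% of all probe sets passed; 1 was higher (background 0.87%) and 1 lower (background 1.31%). At an unadjusted p under 0.05 it was 7 of 33, where the background was 16.1%. For A1 against B3 and C6, the same 2 probe sets passed, against a background of 2.71%, with 1 higher (background 1.71%) and 1 lower (background 0.999%), and 9 of 33 had an unadjusted p under 0.05 against 17.1%. Both comparisons use the B3 and C6 arrays, so the second is no independent evidence for the first. Among probe sets whose mean was 6 or more, the counts were 2 of 24 (8.33%) against 10.8% in B3 and C6 and 3 of 24 (12.5%) against 13.7% for A1 against them. The share of called members was thus above the background over all probe sets and below it among those whose mean was 6 or more. These shares rest on 2 or 3 probe sets, and their difference from the background was not tested. By the brightest probe set of each gene, with p adjusted over all probe sets, 0 of the 10 genes passed in B3 and C6 (background 1.81%) and 0 of 10 for A1 against them (background 2.68%), with 2 and 3 genes at an unadjusted p under 0.05 (backgrounds 15.7% and 18%). With p adjusted over the brightest probe sets alone, 0 of 10 passed again, where the backgrounds were 1.14% and 2.52%.

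A1 went against both other clones in 21 of 33 probe sets (63.6%), where the share was 41.6% over all probe sets. Among those whose mean was 6 or more it did so in 17 of 24 (70.8%), against 60.3%, and among the brightest of each gene in 8 of 10, against 45.7%. All 3 clones moved the same way in 3 of 33 (9.09%), against 18.8% of all probe sets. The arrays of B3 and C6 did not overlap between states in 17 of 33 probe sets, against 36.1%. Over both states, A1 differed from B3 and C6 in 0 of 33 probe sets (limma), where 0.0133% of all probe sets passed, 0.00666% in each direction. An unadjusted p under 0.05 was seen in 3 of 33, against 6.01%, and the arrays of A1 did not overlap those of B3 and C6 in 7 of 33, against 21%. These 7 belonged to Ezh2, Ezh1, Rnf2 and Pcgf6.

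A further 44 genes of the Polycomb system were measured, from a list of 46 that was not picked by how they moved. The list was made with earlier results of these data known. By their brightest probe sets, 0 of the 44 passed over 3 clones and 0 had an unadjusted p under 0.05 (background 0.528%); the smallest p belonged to Max, a variant PRC1 subunit (-0.24), Lcor (0.36), Asxl3, of the H2A deubiquitinase complex PR-DUB (0.17), and Pcgf2 (-0.48). For B3 and C6, 3 of 44 passed (6.82%, against 1.81% of the brightest probe sets of all genes), 1 higher (background 0.445%) and 2 lower (background 1.36%), and 12 had an unadjusted p under 0.05 (background 15.7%). For A1 against them, 2 of 44 passed (4.55%, against 2.68%), both higher (backgrounds 2.03% higher and 0.654% lower), and 13 had an unadjusted p under 0.05 (background 18%). Among all probe sets whose mean was 6 or more, 10.8% passed in B3 and C6 and 13.7% for A1 against them. The further genes were not counted within that set, so their shares are not set against its background. The median over the 44 genes was 0.01 in B3 and C6, where the median of the brightest probe sets of all genes was -0.00. Read by every probe set, the 44 genes had 117. Over 3 clones 0 of these passed and 2 had an unadjusted p under 0.05 (background 0.968%), 1421021_at of Aebp2 (0.40) and 1420039_s_at of Cbx7 (-0.59). The former was dim, with a mean of 4.23 that is below every array median, and the brighter probe sets of Aebp2 were at 0.03, -0.02, 0.06 and 0.08. Its induced and uninduced arrays did not overlap, nor did those of the brightest probe set of Phf19 (0.12), as in 4.55% of all probe sets. In B3 and C6, 7 of 117 passed (5.98%, against 2.18% of all probe sets), 3 higher and 4 lower, and for A1 against them 6 of 117 (5.13%, against 2.71%), 5 higher and 1 lower. The calls beyond the brightest probe sets belonged to Asxl1, Cbx7, Rbbp4 and Usp7 in B3 and C6 and to Asxl1, Bap1, Cbx7 and Usp7 for A1 against them.

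Epop, an accessory subunit that links PRC2 to Elongin BC, had the largest differences of all these genes. Its single probe set was at 11.73, 10.61 and 9.79 in the induced arrays of A1, B3 and C6, and at 10.58, 11.51 and 11.56 in their uninduced arrays. The induced array of A1 was the highest of the 6 and that of C6 the lowest. Epop fell by 1.33 on the log2 scale in B3 and C6, a fold of 2.52 (SE 0.18; limma, adjusted p = 0.0108), and A1 differed from them by 2.49 ± 0.31 (SE; adjusted p = 0.00719). Neither passed under a prior with intensity trend and robust fit (adjusted p = 0.0698 and 0.0704) or without the clone as a replicate block (adjusted p = 0.344 and 0.268).

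Pcgf2 (MEL18), the PCGF paralogue of Bmi1, was at 8.64, 8.0 and 7.38 in the induced arrays of A1, B3 and C6, and at 7.94, 8.65 and 8.86 in their uninduced arrays. Its brightest probe set fell by 1.07 on the log2 scale in B3 and C6, a fold of 2.09 (SE 0.17; limma, adjusted p = 0.0205), and A1 differed from them by 1.77 ± 0.30 (SE; adjusted p = 0.0201). The other probe set of Pcgf2 was at -0.30 in B3 and C6 (adjusted p = 0.186) and at 0.82 for A1 against them (adjusted p = 0.052). Without the clone as a replicate block the brightest one did not pass (adjusted p = 0.357 in B3 and C6 and 0.317 for A1 against them). Bmi1 itself was at -0.02 in B3 and C6, and the difference between Bmi1 and Pcgf2 was not tested.

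Lcor, whose locus encodes a PRC2-associated protein, was at 7.08, 6.92 and 6.78 in the induced arrays of A1, B3 and C6, and at 7.11, 6.32 and 6.26 in their uninduced arrays. It rose by 0.56 in B3 and C6 (SE 0.11; limma, adjusted p = 0.035), to just below the level of both arrays of A1, and did not pass without the clone as a replicate block (adjusted p = 0.382). Kdm6b, a demethylase that removes the mark PRC2 sets, was at 8.05, 8.68 and 8.33 in the induced arrays of A1, B3 and C6, and at 8.45, 7.84 and 8.0 in their uninduced arrays, and missed the threshold both in B3 and C6 (0.59, adjusted p = 0.0593) and for A1 against them (-0.99, adjusted p = 0.0597).

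By role, the PRC2 core and the canonical PRC1 subunits had medians on opposite sides of 0 in B3 and C6. The other roles had medians of 0.10 (PRC2 accessory), 0.02 (variant PRC1), 0.17 (PR-DUB), -0.08 (PCGF), -0.17 (Rnf2 and Ring1) and 0.40 (H3K27 demethylases). Of the brightest probe sets of all genes, 9016 were higher and 9177 lower in B3 and C6, and 9111 higher and 9035 lower in A1. Of the 6 PRC2 core genes (the 4 members with Rbbp4 and Rbbp7), 5 were higher in B3 and C6 with a median of 0.13, Ezh2 being the lower one, and 0 passed (background 1.81%) by their brightest probe sets. Of 9 canonical PRC1 genes measured, of 10 listed (CBX, polyhomeotic and SCM proteins), 7 were lower with a median of -0.35 by these probe sets. Of these 9, 0 passed and 5 had an unadjusted p under 0.05 (background 15.7%). In A1 8 of these 9 were higher, with a median of 0.31. Phc2, a polyhomeotic subunit, had the largest value of them for A1 against B3 and C6, 1.00 (limma, adjusted p = 0.0617), but its other probe set was at -0.61. The single genes and the medians are descriptions, and the difference between the roles was not tested.

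**Figure D4:**
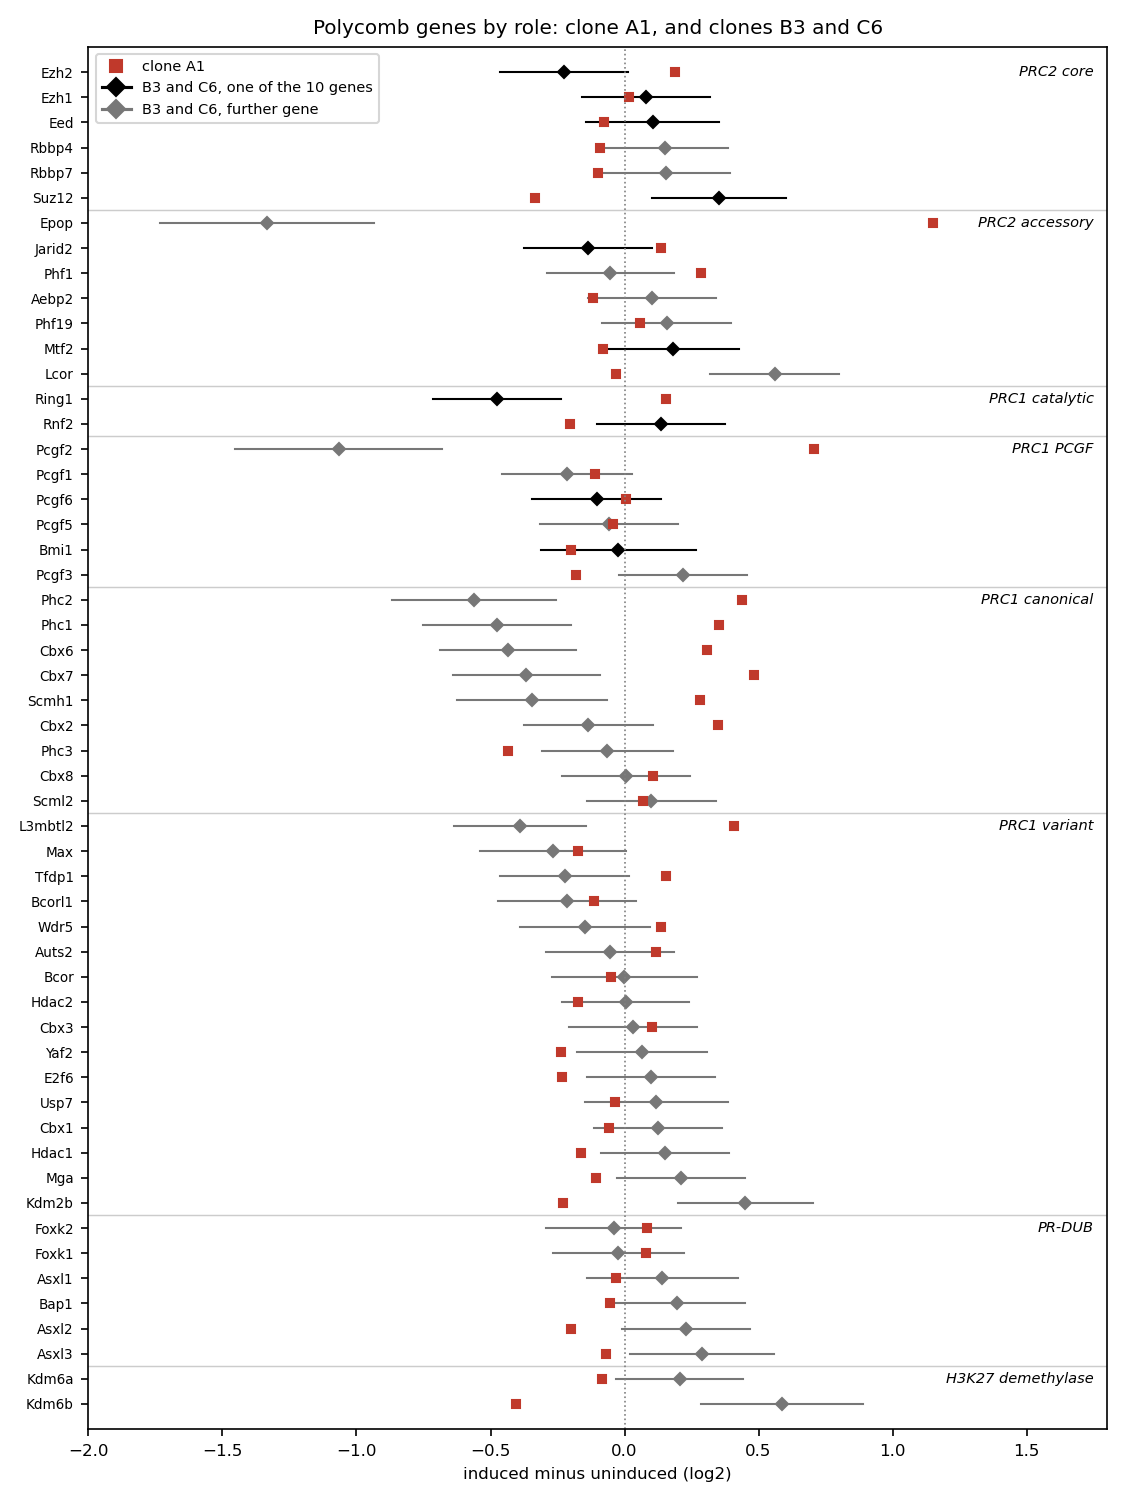
Induced minus uninduced difference (log2) of the brightest probe set of the 10 genes and of the 44 further Polycomb genes, grouped by role; red squares are A1, diamonds are B3 and C6 with the 95% interval of limma's fit (black for the 10 genes, grey for the others), and the dotted line is 0. Epop at -1.33 and Pcgf2 at -1.07 lie farthest to the left, with A1 on the right at 1.15 and 0.71.

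Genes with bivalent promoters, which Polycomb silences in ES cells, were read as a list of targets. Of 22 measured, of 24 listed, 0 passed over 3 clones, 0 in B3 and C6 and 0 for A1 against them, with 0, 1 and 5 at an unadjusted p under 0.05. Over the brightest probe sets of all genes, 0%, 1.81% and 2.68% passed and 0.528%, 15.7% and 18% had such a p. Their medians were -0.03 over 3 clones, -0.04 in B3 and C6 and -0.02 for A1 against them, where the medians of the brightest probe sets of all genes were -0.00, -0.00 and 0.00. Gbx2, a homeobox gene that ES cells already express, was nearest to the threshold: it was at 10.25, 8.91 and 9.22 in the induced arrays of A1, B3 and C6, and at 9.93, 9.34 and 9.79 in their uninduced arrays, with -0.50 in B3 and C6 (limma, adjusted p = 0.0502).

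An ES cell marker moved in the same pattern, although the 8 ES cell markers were split. For A1 against B3 and C6 4 were higher and 4 lower, the lower ones being Dppa5a (-0.19), Sox2 (-0.12), Tdgf1 (-0.06) and Zfp42 (-0.01). In B3 and C6 3 were higher and 5 lower. Esrrb, a nuclear receptor of the naive state, was at 11.30, 10.74 and 10.40 in the induced arrays of A1, B3 and C6, and at 10.79, 11.11 and 11.04 in their uninduced arrays, and A1 differed from B3 and C6 by 1.02 ± 0.20 (SE; limma, adjusted p = 0.0347), which did not pass without the clone as a replicate block (adjusted p = 0.381). It was the one of the 8 ES cell markers that passed in that comparison (background 2.68%). In B3 and C6 0 of 8 passed, with Esrrb at -0.51 (adjusted p = 0.0594); Esrrb, Pou5f1 and Utf1 had an unadjusted p under 0.05 in both comparisons. Of the 8 feeder markers 0 passed in either, with 3 at an unadjusted p under 0.05 in B3 and C6 (background 15.7%) and 2 for A1 against them (background 18%). Fbln1 was at -0.51 and Tagln at -0.48 in B3 and C6 (limma, adjusted p = 0.0521 and 0.0535), and A1 differed from them by 0.73 for Fbln1 (adjusted p = 0.0868). The 8 feeder markers shared no direction: in B3 and C6 4 were higher and 4 lower, with a median of -0.03. Col3a1 had the highest value there, 0.24. For A1 against B3 and C6 5 were higher and 3 lower. Of the 7 differentiated cell markers 0 passed in either comparison, with 2 at an unadjusted p under 0.05 in each. The part of such markers in the Polycomb values was not tested.

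The genes whose profile over the 6 arrays was most like that of Ezh2, by Pearson's r among 9551 genes whose mean was 6 or more, were Exoc3l (0.999), Zfp423 (0.999), Triobp (0.997), Csrp2 (0.996) and Rarg (0.995). The arrays are those of the same 3 clones, and the correlations describe these 6 arrays only. Exoc3l was at 8.61, 7.30 and 7.28 in the induced arrays of A1, B3 and C6, and at 8.02, 7.84 and 8.02 in their uninduced arrays, so the shared profile was that of a high A1 and low B3 and C6 after induction.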

How the data were processed

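RNA of 6 cultures of mouse ES cells was measured on Affymetrix arrays, 3 induced and 3 uninduced. The deposited log2 values were made by the authors by RMA; affy and RMA stand in the submitters' processing notes, with versions not given in the sources used here. They were used as deposited. Of 45101 probe sets, 64 controls were left out. Of the 45037 tested, 34945 had 1 gene symbol, 932 several and 9160 none listed here; 34741 were found in the RefSeq table of GRCm38.p6. Probe sets with several symbols named no gene. The probe set with the highest mean over 6 arrays was a gene's brightest.

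Each probe set was tested two-sided by limma (version 3.58.1, lmFit and eBayes; R version 4.3.3), adjusted by Benjamini-Hochberg over the 45037 probe sets, at a threshold of 0.05. The t-test of the methods was run as an alternative. The fit over 3 clones had no block, so differences between clones stayed in its error. With the clone as a block, 847 probe sets had an unadjusted p under 0.05 by limma, against 436 without it, and 0 passed in either. The fits of B3 and C6, and of A1 against them, had the clone as a replicate block; each has 1 residual degree of freedom beside the pooled prior, and the fit of A1 assumes that A1 varies like the others. The same clone stands in both states, so the numbers pair the samples: deviations of the arrays of a clone correlated at 0.19 (A1), 0.53 (B3) and 0.31 (C6). The fit of clone means over both states was added after the data were seen.

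The genes, the lists and the comparison without A1 were chosen with earlier results of these data known. Named were all probe sets of the 10 genes, the further Polycomb genes that passed (or, where fewer than 4 did, those with the smallest p up to 4 per comparison), called genes of the other lists, and the 5 genes most like Ezh2; Gbx2, some marker genes and probe sets of the further genes beyond their brightest were named after their values were seen. Alternatives were the variance model, quantile normalization, a mean of at least 6, 1 probe set per gene, thresholds of 0.10 and 0.01, array weights, the block, and leaving out arrays or clones. Precision is limited by the number of arrays. Batches and scan dates were not given in the sources used here.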

Additional observations from a re-analysis of the deposited data

Results flagged for a closer look

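In 9 genes, counting every probe set of the Polycomb genes and the brightest ones of the targets and markers, the induced minus uninduced difference of A1 differed from that of B3 and C6 by limma's interaction test, with A1 on the other side of 0 from both clones in each. The values, A1 minus B3 and C6 on the log2 scale, were -0.85 for Suz12 (1420022_s_at), 1.05 for Jarid2 (1450710_at), 1.77 for Pcgf2, 2.49 for Epop and 1.02 for Esrrb, at adjusted p of 0.047, 0.0248, 0.0201, 0.00719 and 0.0347. Probe sets that were not the brightest of their gene gave -1.80 for Usp7, 1.14 for Cbx7, 0.95 for Bap1 and 1.11 for Asxl1, at adjusted p of 0.0036, 0.0324, 0.0411 and 0.019. None of the 9 passed without the clone as a replicate block, where the adjusted p lay between 0.265 (Asxl1) and 0.565 (Suz12). Over all probe sets 2.71% passed this test, and A1 is 1 clone, whose sign rests on the labels of its 2 arrays.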

How the results depend on the processing

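Over 3 clones 0 probe sets passed under every alternative run, with 436 at an unadjusted p under 0.05 by limma and 867 by the methods' t-test; with the clone as a replicate block it was also 0. In B3 and C6, 981 probe sets passed; the count was 2659 with an intensity trend and robust prior, 1861 with a mean of at least 6, 207 with 1 probe set per gene, 2107 at 0.10, 103 at 0.01 and 0 with no replicate block (smallest adjusted p = 0.0536), where the count was also 0 with each array left out in turn. For A1 against B3 and C6, 1219 passed; under the same alternatives the counts were 2939, 2355, 458, 2642 and 165, and 3 with no replicate block. For A1 against B3 and C6 over both states, 6 passed, and 235, 2, 10, 65 and 2 did under these alternatives, with 2 after quantile normalization.

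The calls of Suz12 1420022_s_at and Jarid2 1450710_at in B3 and C6 held with the intensity trend, with quantile normalization and at 0.10; both were lost at 0.01 and without the block (adjusted p = 0.505 and 0.478), and that of Suz12 could not be made with a mean of at least 6, which removes it. Neither is the brightest of its gene, so both drop out with 1 probe set per gene. Each array left out in turn, with no block, moved Suz12 between 0.41 and 0.82 and Jarid2 between -0.82 and -0.41 without passing. Leaving out a clone in these fits leaves no residual degree of freedom and was not run. Over 3 clones, Epop and Pcgf2 were at 0.13 and 0.03 without C6, against -0.51 and -0.48 with it. Over the alternatives, 1581 values of single probe sets stayed on their side of the threshold, 71 lost it, 36 gained it and 112 that were not called changed sign; no called value did.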

Other observations

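Dimmer probe sets of 5 further Polycomb genes passed the test where the brightest one of the gene did not; they were named after their values were seen. Asxl1, the partner that activates the deubiquitinase BAP1, was at 6.53, 5.66 and 5.65 by 1458380_at in the induced arrays of A1, B3 and C6, and at 6.30, 6.52 and 6.55 in their uninduced arrays. The induced arrays of B3 and C6 lay below the other 4. It fell by 0.88 on the log2 scale in B3 and C6 (limma, adjusted p = 0.0079), and A1 differed from them by 1.11 (adjusted p = 0.019). The brightest probe set of Asxl1 was at 0.14 in B3 and C6 (adjusted p = 0.656), on the other side of 0.

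Cbx7, the main CBX subunit of canonical PRC1 in ES cells, was at 6.93, 6.13 and 5.89 by 1420039_s_at in the induced arrays of A1, B3 and C6, and at 6.76, 6.88 and 7.07 in their uninduced arrays. It fell by 0.97 on the log2 scale in B3 and C6 (limma, adjusted p = 0.0105), and A1 differed from them by 1.14 (adjusted p = 0.0324). The brightest probe set of Cbx7 was at -0.37 in B3 and C6 (adjusted p = 0.169) and at 0.85 for A1 against them (adjusted p = 0.0723).

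Usp7, a deubiquitinase found with variant PRC1, was at 6.34, 7.23 and 8.05 by 1419921_s_at in the induced arrays of A1, B3 and C6, and at 7.40, 6.60 and 7.23 in their uninduced arrays, and rose by 0.73 in B3 and C6 (limma, adjusted p = 0.0163), with A1 at -1.80 against them (adjusted p = 0.0036). The brightest probe set of Usp7 was at 0.12 in B3 and C6 (adjusted p = 0.701). Rbbp4, a histone chaperone of the PRC2 core, rose by 0.64 in B3 and C6 by 1456260_at (adjusted p = 0.0361), where its brightest was at 0.15. Bap1 passed by 1426354_at for A1 against B3 and C6 (0.95, adjusted p = 0.0411), where its brightest was at -0.25. Without the clone as a replicate block none of these 5 genes passed, with adjusted p between 0.265 and 0.656.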
